A study of Mus musculus with 12 samples.

Results

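Transcripts of 36 genes of the unfolded protein response and the integrated stress response were followed in 12 RNA sequencing libraries of cultured mouse mammary epithelial cells. The genes were found by symbol among the 28427 rows of the deposited annotation, without use of their measured values, and each of the 36 had a single row. All 36 passed the filter on low counts, which kept 13951 genes. They fall into an arm of the endoplasmic reticulum (ER) with 25 genes and an arm around the transcription factor ATF4 with 11 genes. The cells came from the C57BL/6 strain, and the sources used here do not give how they were isolated. In monolayers the cells grew on dishes coated with collagen, and in spheroids they grew inside a gel of growth factor-reduced Matrigel, a basement membrane extract. Each format was sampled at 48 h and at 96 h with 3 libraries, giving the groups 48 h monolayer, 48 h spheroid, 96 h monolayer and 96 h spheroid. The medium of all 4 groups held progesterone at 1 µM together with prolactin at 1 µg/mL, and the gels received fresh medium after 48 h. A medium change at 48 h is listed for the libraries of all 4 groups. Format and matrix changed together, so their parts in a difference cannot be told apart. The series describes the 3 libraries of a group as biological replicates, and the sources used here do not give whether separate animals stand behind them.

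The ER folds secreted and membrane proteins with chaperones, lectins and enzymes that form disulfide bonds, and it returns misfolded proteins to the cytosol for degradation. A surplus of unfolded protein is sensed in the ER membrane by the kinase and nuclease IRE1 (gene Ern1), by ATF6 and by the kinase PERK (gene Eif2ak3). IRE1 splices the mRNA of the transcription factor XBP1, cleaved ATF6 enters the nucleus, and both raise the transcription of folding and degradation genes. PERK phosphorylates the translation factor eIF2, as do other kinases that respond to amino acid shortage, viral RNA or heme shortage. This slows translation in general and favours that of ATF4, which activates genes of amino acid synthesis and uptake. Mammary epithelium is a secretory tissue, and its alveolar cells depend on the ER for the synthesis of milk proteins. Splicing of Xbp1, phosphorylation of eIF2 and translation of Atf4 are not visible in counts per gene, so only transcript levels are described here.

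Some of the members' promoters carry letters through which these factors are known to act, and others do not. As examples, 7 of those that carry such letters are printed, from genes described in the results. RefSeq promoter windows of build GRCm38.p6, from 250 bases before to 50 bases after the annotated start, were matched for 33 of the 36 members; the expression counts rest on another build, mm9. The 4 patterns below were searched on both strands. The ER stress response element, bound by ATF6 with NF-Y, was taken as CCAAT and CCACG 9 bases apart. Its second form was taken as ATTGG and CCACG 1 base apart, and ATTGG is CCAAT read on the other strand. The unfolded protein response element was TGACGTGG, and the amino acid response motif, bound by ATF4 with C/EBP proteins, was TGATGNAA. The 250 bases before each start are printed 5′ to 3′ on the strand of the gene, and capitals mark both parts of an ER stress element or the whole amino acid response motif.
Hspa5: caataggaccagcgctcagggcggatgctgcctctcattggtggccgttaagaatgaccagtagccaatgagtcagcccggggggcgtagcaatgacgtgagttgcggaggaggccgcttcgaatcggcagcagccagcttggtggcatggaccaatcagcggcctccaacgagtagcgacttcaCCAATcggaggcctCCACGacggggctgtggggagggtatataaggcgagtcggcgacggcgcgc
Hsp90b1: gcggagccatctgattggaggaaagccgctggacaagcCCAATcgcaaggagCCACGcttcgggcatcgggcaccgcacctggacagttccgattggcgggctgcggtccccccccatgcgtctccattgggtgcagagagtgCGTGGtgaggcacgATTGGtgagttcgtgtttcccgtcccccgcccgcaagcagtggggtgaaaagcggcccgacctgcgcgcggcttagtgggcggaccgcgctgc
Creld2: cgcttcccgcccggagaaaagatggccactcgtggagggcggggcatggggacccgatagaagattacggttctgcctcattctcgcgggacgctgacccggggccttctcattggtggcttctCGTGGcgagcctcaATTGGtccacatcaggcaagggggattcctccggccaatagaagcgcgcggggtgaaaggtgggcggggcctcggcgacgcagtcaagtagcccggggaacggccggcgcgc
Herpud1: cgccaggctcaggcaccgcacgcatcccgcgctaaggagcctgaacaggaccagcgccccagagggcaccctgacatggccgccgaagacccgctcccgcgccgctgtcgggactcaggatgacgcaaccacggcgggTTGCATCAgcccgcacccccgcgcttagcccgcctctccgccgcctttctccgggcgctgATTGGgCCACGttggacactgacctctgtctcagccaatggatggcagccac
Asns: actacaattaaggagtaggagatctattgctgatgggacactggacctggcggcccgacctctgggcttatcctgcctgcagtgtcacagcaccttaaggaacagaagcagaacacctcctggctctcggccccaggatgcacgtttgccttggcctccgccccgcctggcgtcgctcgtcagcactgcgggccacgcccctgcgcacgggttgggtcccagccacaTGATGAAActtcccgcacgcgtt
Chac1: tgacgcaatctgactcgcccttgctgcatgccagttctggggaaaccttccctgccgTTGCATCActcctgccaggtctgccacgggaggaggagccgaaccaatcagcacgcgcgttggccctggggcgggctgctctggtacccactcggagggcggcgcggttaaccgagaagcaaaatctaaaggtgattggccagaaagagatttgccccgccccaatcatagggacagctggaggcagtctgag
Nupr1: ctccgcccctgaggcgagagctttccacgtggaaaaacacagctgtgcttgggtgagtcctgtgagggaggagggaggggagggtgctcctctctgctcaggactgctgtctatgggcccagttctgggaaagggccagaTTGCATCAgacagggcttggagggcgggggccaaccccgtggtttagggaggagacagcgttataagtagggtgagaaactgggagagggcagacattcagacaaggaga
The Hspa5 sequence lies at chr2:34771840-34772089 on the plus strand, Hsp90b1 at chr10:86705445-86705694 on the minus strand and Creld2 at chr15:88819396-88819645 on the plus strand. Herpud1 lies at chr8:94386179-94386428 on the plus strand, Asns at chr6:7693210-7693459 on the minus strand, Chac1 at chr2:119350992-119351241 on the plus strand and Nupr1 at chr7:126625471-126625720 on the minus strand.

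Among the 22 ER members with a window, 9 (40.9%) held the ER stress element, against 39 of all 32851 windows (0.119%). These 9 were Hspa5, Hsp90b1, Calr, Canx, Dnajc3, Creld2, Pdia6, Syvn1 and Derl3, and Hsp90b1 held 2 matches. The second form was found in Dnajb11 and Herpud1, 9.09% of the ER members' windows against 0.0365% of all. In the ATF4 arm 5 of 13 windows, from 5 of the 11 genes, held the amino acid response motif (38.5%), against 3.97% of all windows and 1 of 22 ER windows (4.55%). Those 5 genes were Asns, Chac1, Nupr1, Trib3 and Vldlr, and the ER gene was Herpud1, which held both kinds of letters. In Trib3 and Dnajb11 the match lay after the start. The unfolded protein response element was in no member's window and in 0.676% of all windows. The members were listed as known genes of these responses and the motifs as known elements of them. The higher shares are therefore no independent support. A match is a description of letters in a window and does not show binding. A window without a match says only that these letters are not in it.

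**Figure D1:**
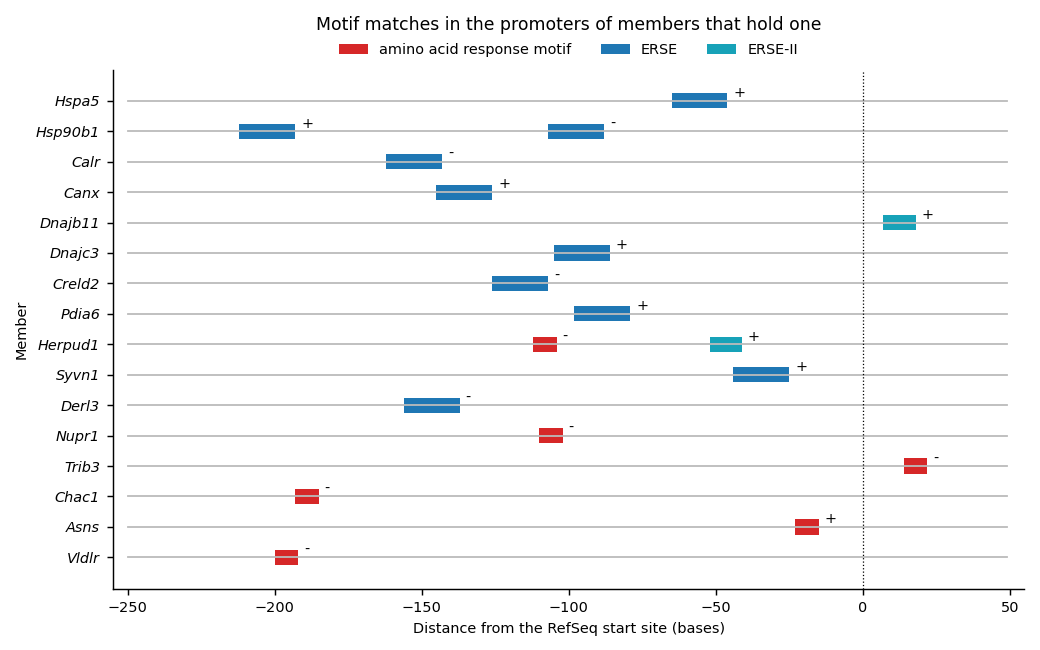
Position of each motif match, in bases from the RefSeq start site (dotted line at 0), for the 16 members that hold one. Blue bars are ER stress elements, turquoise bars the second form and red bars the amino acid response motif; the sign gives the strand relative to the gene. ER stress elements sit in ER members, and the red bars sit in 5 ATF4 members and in Herpud1.

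Library totals ran from 7674105 to 13554497 counts. Within a group the replicates differed beyond counting error, with a chi-square per degree of freedom of 2.48 to 18.3, highest between the 48 h monolayer replicates 1 and 3. Marker lists of other cell types were measured beside the members. The 6 mammary epithelial markers summed to 9366 to 10745 CPM (counts scaled to a common library size) in 48 h monolayers, 5743 to 6128 in 48 h spheroids, 4074 to 4351 in 96 h monolayers and 5978 to 6250 in 96 h spheroids. The 9 fibroblast markers summed to 7800 to 8571, 1995 to 2257, 1772 to 2431 and 682 to 738 CPM in the same order. The 6 endothelial markers summed to 41.2 to 55.8, 27.8 to 38.3, 68.5 to 71.3 and 6.76 to 8.23 CPM, highest in 96 h monolayers and lowest in 96 h spheroids. The 7 immune markers summed to 57.3 to 67.1, 264 to 295, 83.3 to 100 and 459 to 542 CPM, and Cd14 made up most of each sum, with 52.9 to 59.9, 253 to 288, 60.4 to 67.3 and 452 to 535 CPM. Cd68 stood at 20.1 to 30 CPM in 96 h monolayers and at 1.96 to 6.06 CPM in the other 9 libraries, while Ptprc, Adgre1, Cd3e and Cd79a reached at most 0.663 CPM in any library. The 6 adipocyte markers summed to 31.7 to 37.4, 293 to 326, 54.1 to 80.6 and 52 to 54.1 CPM, with Adipoq, Plin1 and Lep at 0 in 48 h monolayers, Lep at 0 in 48 h spheroids, and Plin1, Lep and Cidec at 0 in 96 h monolayers. Cd3e was at 0 in 96 h monolayers. The fibroblast sum, most of which in 48 h monolayers was Col1a1 and Col1a2, was highest in 48 h monolayers and lowest in 96 h spheroids. Single markers had other orders: Pdgfra (119 to 153 CPM) and Dcn (268 to 351 CPM) were highest in 96 h monolayers, and Col3a1 was lowest there (55.1 to 83.5 CPM). Of the epithelial markers, Epcam, Cdh1, Krt8 and Krt18 were highest in 48 h monolayers, but Krt5 and Krt14 in 48 h spheroids. Krt14 had means of 494 and 1033 CPM in monolayers and spheroids at 48 h, and of 73.6 and 908 CPM at 96 h. Those of Krt5 were 76.5 and 216 CPM, then 10 and 131 CPM. The part of these cell type markers in the results below was not tested.

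Levels are comparable between genes per length, as FPKM, a fragment count scaled by transcript length and library size. Calr, which encodes the lectin chaperone calreticulin, was the most abundant member in 48 h monolayers with a mean of 764 FPKM, followed by Hsp90b1 (627 FPKM) and Hspa5 (596 FPKM). The sensors were far lower, with mean FPKM in 48 h monolayers of 6.92 for Ern1, 12 for Atf6 and 15 for Eif2ak3. Derl3, a membrane protein of ER-associated degradation, was the least abundant with 0.36 FPKM and held 149 counts over the 12 libraries. In the ATF4 arm the chromatin-associated stress protein gene Nupr1 (191 FPKM) and Atf4 (189 FPKM) led in 48 h monolayers. The ER arm took 0.816 to 0.828% of the summed FPKM in 48 h monolayers, 0.68 to 0.699% in 48 h spheroids, 0.807 to 0.855% in 96 h monolayers and 0.585 to 0.613% in 96 h spheroids. Spheroids thus lay below monolayers at both times in the share of ER transcripts, without overlap. Abundant genes weigh most in this sum. At 48 h mean FPKM went from 596 to 373 for Hspa5 and from 627 to 468 for Hsp90b1, but from 764 to 821 for Calr. By mean CPM, 11 ER genes were highest in 48 h monolayers, 7 in 96 h monolayers, 5 in 48 h spheroids and 2 in 96 h spheroids. The ATF4 arm took 0.173 to 0.181%, 0.118 to 0.123%, 0.16 to 0.186% and 0.203 to 0.217% in the same order, so its share was lowest in 48 h spheroids and highest in 96 h spheroids. Gene by gene, 7 of the arm had their lowest mean CPM in 48 h spheroids. Only 3 were highest in 96 h spheroids, against 4 in 96 h monolayers, 3 in 48 h monolayers and 1 in 48 h spheroids.

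At 48 h the ATF4 arm was lower in spheroids: 10 of its 11 genes fell and 1, Cebpb, rose. The median log2 fold change of spheroids over monolayers was -0.91, against 0.05 over all tested genes. Of all tested genes 26.4% were called lower and 31.6% higher by edgeR's quasi-likelihood test, at a Benjamini-Hochberg adjusted p under 0.05. Groups that did not overlap were common, with 7607 of all 13951 tested genes called and without overlap in this comparison. In the same comparison 6 of 9 fibroblast markers fell and 2 rose, and 3 of 6 endothelial markers fell. Of the 6 mammary epithelial markers 4 fell (Epcam, Cdh1, Krt8 and Krt18) and 2 rose (Krt5 and Krt14). Cd14 rose 4.82-fold, and all 3 tested adipocyte markers rose, among them Fabp4 (8.24-fold) and Plin4 (20.7-fold). The part of these markers in the result was not tested. In bulk RNA, fewer cells of a type and less RNA per cell cannot be told apart. Atf4 stood at 300, 352 and 390 CPM in the monolayers and at 196, 191 and 173 CPM in the spheroids. The groups did not overlap, and Atf4 fell 1.86-fold (log2 fold change -0.89 ± 0.0889 SE, adjusted p = 7.88e-08). Ddit3, the gene of the stress transcription factor CHOP, stood at 25.7, 28.4 and 34.1 CPM in monolayers and at 10.1, 9.84 and 7.79 CPM in spheroids. Every spheroid library was below every monolayer library, a 3.17-fold fall (adjusted p = 7.24e-09). Nupr1 fell from 104, 123 and 136 CPM to 52, 46 and 48.6 CPM, and Ppp1r15a fell from 70.9, 74.1 and 70.2 CPM to 32, 34.5 and 33.2 CPM. Ppp1r15a encodes the phosphatase subunit GADD34, which removes the phosphate from eIF2, and the fold change was 2.16 (adjusted p = 2.37e-10), against 2.47 for Nupr1 (adjusted p = 2.42e-08). Cebpb, a transcription factor that pairs with ATF4 and acts in mammary development, was the exception with 132, 121 and 158 CPM in monolayers and 312, 364 and 339 CPM in spheroids, a 2.46-fold rise (adjusted p = 1.4e-09).

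All 6 ATF4 target genes fell in spheroids at 48 h. Chac1, which encodes an enzyme that degrades glutathione, had the largest fall of all 36 members. It stood at 25.9, 28.9 and 28 CPM in monolayers and at 3.12, 3.71 and 3.56 CPM in spheroids, 8.0-fold lower (log2 fold change -3.00 ± 0.118 SE, adjusted p = 1.51e-13). Asns, the asparagine synthetase gene whose promoter match is printed above, stood at 206, 223 and 227 CPM in monolayers and at 52.8, 57 and 51.1 CPM in spheroids, 4.08-fold lower (adjusted p = 1.05e-14). Both genes had every spheroid value far below the lowest monolayer value. Phgdh and Psat1 encode the enzymes of the first and second steps of serine synthesis. Phgdh stood at 157, 161 and 178 CPM in monolayers against 105, 122 and 107 CPM in spheroids, 1.49-fold lower (adjusted p = 2.39e-06). Psat1 stood at 235, 252 and 252 CPM in monolayers against 133, 151 and 148 CPM in spheroids, 1.71-fold lower (adjusted p = 6.05e-09). Trib3, a pseudokinase that restrains ATF4 activity, fell 1.88-fold, and the lipoprotein receptor gene Vldlr fell 1.61-fold (adjusted p = 9.46e-09 and 1.69e-07). Trib3 stood at 56.2 to 62.7 CPM against 29 to 33.7 CPM, and Vldlr at 89.8 to 105 CPM against 57.8 to 62.5 CPM.

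**Figure D2:**
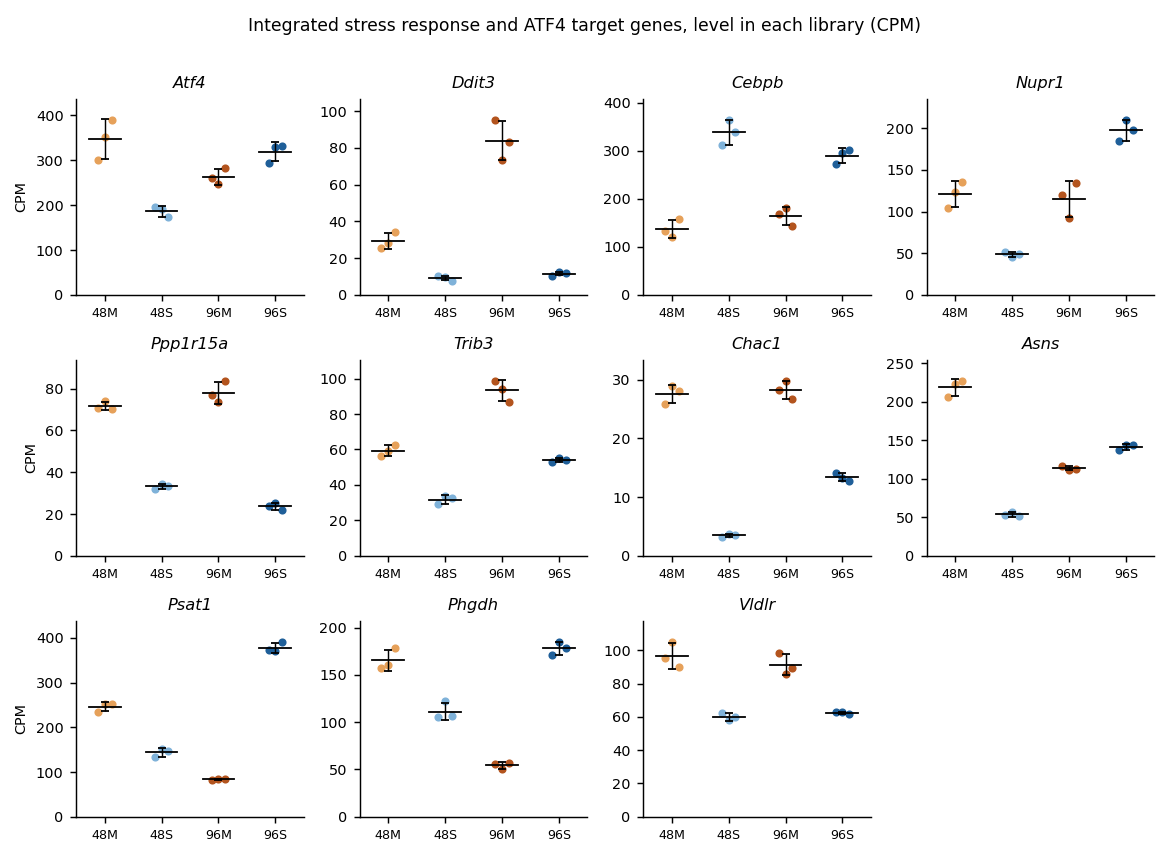
Level of the 11 genes of the ATF4 arm in CPM (y axis, starting at 0) in each library, by group on the x axis (48M and 96M monolayers, 48S and 96S spheroids at 48 h and 96 h; n = 3 each). Points are libraries, and lines are the mean and SD. Asns, Psat1, Phgdh, Atf4 and Nupr1 lie lower in spheroids at 48 h and higher at 96 h, while Ddit3 and Ppp1r15a lie lower in spheroids at both times.

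The ER arm was divided at 48 h: 12 of 25 genes fell in spheroids, 5 rose and 8 did not pass, with a median log2 fold change of -0.13. Thus 48% were called lower and 20% higher, against 26.4% and 31.6% of all tested genes. Of the 11 chaperones and co-chaperones 4 fell and 2 rose (36.4% and 18.2%). Hspa5 encodes BiP, the main Hsp70 chaperone of the ER lumen and the standard readout of the unfolded protein response. It stood at 1454, 1654 and 1764 CPM in monolayers and at 932, 952 and 945 CPM in spheroids, 1.72-fold lower (log2 fold change -0.78 ± 0.0751 SE, adjusted p = 4.68e-08). Hsp90b1, which encodes the ER form of Hsp90, stood at 1724, 1804 and 2057 CPM against 1331, 1234 and 1297 CPM, 1.45-fold lower (adjusted p = 7.34e-06). Both genes had lower values in every spheroid library. The co-chaperone gene Dnajb9, a target of XBP1, stood at 48.6 to 59.6 CPM against 38.6 to 42 CPM (1.39-fold lower, adjusted p = 5.59e-05). The secreted ER stress protein gene Manf stood at 229 to 284 CPM against 190 to 194 CPM (1.34-fold lower, adjusted p = 9.25e-05). The 2 that rose were the ER stress-inducible gene Creld2, at 49.8, 51.6 and 61.6 CPM against 61.2, 75.1 and 68.9 CPM (1.26-fold, adjusted p = 0.00375), and the DNAJB11 partner gene Sdf2l1, at 23.4 to 24.9 CPM against 25.9 to 32.5 CPM (1.22-fold, adjusted p = 0.0156). For Creld2 the highest monolayer value lay just above the lowest spheroid value. The call of Sdf2l1 was lost without 48 h spheroid replicate 2 (adjusted p = 0.093). Calr, at 1448 to 1718 CPM against 1562 to 1607 CPM, did not pass (log2 fold change -0.01, adjusted p = 0.957), nor did its membrane-bound relative Canx, at 897 to 924 CPM against 808 to 872 CPM (log2 fold change -0.13, adjusted p = 0.0826). The co-chaperone genes Dnajb11 and Dnajc3 and Hyou1, which encodes an exchange factor of BiP, did not pass either, with log2 fold changes of 0.06, -0.12 and 0.08.

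Of the 5 genes of disulfide formation, 3 fell in spheroids at 48 h and none rose (60% lower, against 26.4% of all tested genes). Ero1l, the oxidase gene that recharges protein disulfide isomerase, stood at 421, 457 and 427 CPM in monolayers and 215, 184 and 200 CPM in spheroids, 2.18-fold lower (adjusted p = 9.43e-11). P4hb, the gene of protein disulfide isomerase itself, fell 1.21-fold (1099 to 1259 CPM against 969 to 1014 CPM, adjusted p = 0.00167). Pdia3, whose product works with calreticulin and calnexin, fell 1.2-fold (1170 to 1449 CPM against 1052 to 1157 CPM, adjusted p = 0.00498), and this call was lost with libraries scaled by total counts (adjusted p = 0.0563). Pdia4 and Pdia6, further isomerase genes, did not pass (adjusted p = 0.227 and 0.155); Pdia6 passed without 48 h monolayer replicate 1 (adjusted p = 0.0417).

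The sensor genes moved in different directions at 48 h. Eif2ak3 stood at 71.6, 68.3 and 69 CPM in monolayers and at 31.1, 27.2 and 31.4 CPM in spheroids, 2.32-fold lower (adjusted p = 4.42e-11). Atf6 stood at 110, 102 and 79.1 CPM against 65.7, 68.1 and 62.2 CPM, 1.48-fold lower (adjusted p = 4.2e-05). Ern1 stood at 35, 31 and 22.4 CPM against 37.4, 35.3 and 39.6 CPM, 1.27-fold higher (adjusted p = 0.0151). Monolayer replicate 3 was the low library for both Atf6 and Ern1. Without it Ern1 had a log2 fold change of 0.18 (adjusted p = 0.0767) against 0.35 with it, and without 48 h spheroid replicate 3 its adjusted p was 0.0609. Xbp1 stood at 109, 114 and 128 CPM against 133, 133 and 136 CPM, 1.15-fold higher (adjusted p = 0.0168). That call was lost without 48 h monolayer replicate 1 or 2 or without 48 h spheroid replicate 3 (adjusted p = 0.0677, 0.0621 and 0.0535).

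Of the 5 genes of ER-associated degradation, 3 fell and 1 rose at 48 h (60% and 20%, against 26.4% and 31.6% of all tested genes). Sel1l, the adaptor of the ubiquitin ligase Hrd1, stood at 217, 215 and 186 CPM against 165, 150 and 158 CPM (1.31-fold lower, adjusted p = 8.58e-05). Herpud1, which encodes a scaffold of the same ligase, stood at 93.3, 96 and 108 CPM against 73.3, 77.9 and 80.8 CPM (1.28-fold lower, adjusted p = 0.000342). Edem1, whose product marks misfolded glycoproteins for disposal, stood at 123 to 127 CPM against 93 to 108 CPM (1.24-fold lower, adjusted p = 0.00023). These 3 genes were lower in each spheroid library. Syvn1, the gene of Hrd1, did not pass, at 53.2 to 61 CPM against 60.9 to 64.5 CPM (adjusted p = 0.124). Derl3 was higher, at 0.784, 0.166 and 0.537 CPM against 1.51, 1.16 and 1.11 CPM (log2 fold change 1.38 ± 0.431 SE, adjusted p = 0.0102). Its lowest library held 2 counts, and the call was lost without 48 h monolayer replicate 2 (log2 fold change 0.94, adjusted p = 0.0623). The count of ER genes that rose was 3 in place of 5 without 48 h monolayer replicate 2 or without 48 h spheroid replicate 3.

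At 96 h the 2 arms differed in another way: 17 of 25 ER genes fell in spheroids and 6 rose, while 6 of 11 genes of the ATF4 arm rose and 5 fell. Over all tested genes 36.5% were called lower and 37.3% higher in 96 h spheroids. In the ER arm 68% were called lower and 24% higher, and in the ATF4 arm 45.5% and 54.5%. The median log2 fold change was -0.33 in the ER arm, 0.28 in the ATF4 arm and -0.00 over all tested genes. The 12 housekeeping genes had a median of 0.36, above that of the ATF4 arm, with 7 higher and 3 lower. Of the fibroblast markers 7 fell and 1 rose, all 6 endothelial markers fell, and 5 of 6 mammary epithelial markers rose. Cd14 rose 7.75-fold and Cd68 fell 4.97-fold, and of 3 tested adipocyte markers 2 rose and 1 fell. The part of these markers and of the housekeeping genes in the result was not tested. Psat1 had the largest rise of the members, with 82.6, 84.8 and 84.6 CPM in monolayers and 372, 371 and 391 CPM in spheroids, 4.50-fold higher (log2 fold change 2.17 ± 0.0665 SE, adjusted p = 2.6e-15). Phgdh stood at 56.1, 50.2 and 56.9 CPM in monolayers and at 171, 185 and 179 CPM in spheroids, 3.26-fold higher (adjusted p = 5.97e-13). Both serine synthesis genes had thus been lower in spheroids at 48 h and were higher at 96 h, in all libraries. Asns stood at 117, 112 and 113 CPM against 137, 144 and 144 CPM, 1.24-fold higher (adjusted p = 0.000161). Nupr1 stood at 120, 91.9 and 134 CPM against 185, 210 and 198 CPM, 1.70-fold higher (adjusted p = 4.84e-06). Atf4 stood at 261, 247 and 282 CPM against 295, 329 and 333 CPM, 1.21-fold higher (log2 fold change 0.28 ± 0.0875 SE, adjusted p = 0.00848). The groups did not overlap for any of these genes, but the call of Atf4 was lost without 96 h monolayer replicate 2 (adjusted p = 0.0526) and with upper-quartile scaling (adjusted p = 0.0723). Of all 13951 tested genes, 10121 were called and without overlap at 96 h, so this is the usual outcome here. Cebpb was again higher, at 168, 181 and 144 CPM against 273, 295 and 302 CPM (1.77-fold, adjusted p = 3.64e-07).

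The other 5 genes of the ATF4 arm were lower in spheroids at 96 h as they had been at 48 h. Ddit3 had the largest fall, with 95.2, 73.6 and 83.1 CPM in monolayers and 10.5, 12.5 and 11.7 CPM in spheroids, 7.29-fold lower (log2 fold change -2.87 ± 0.119 SE, adjusted p = 1.74e-13). Ppp1r15a, which CHOP is known to induce, stood at 76.8, 73.4 and 83.7 CPM against 23.8, 25.3 and 22.1 CPM, 3.30-fold lower (adjusted p = 2.55e-13). Chac1 stood at 28.2, 29.8 and 26.7 CPM against 14.1, 13.3 and 12.7 CPM, 2.10-fold lower (adjusted p = 4.08e-09). Trib3, also a known CHOP target, stood at 98.7, 94.3 and 87 CPM against 52.7, 55 and 54.2 CPM, 1.73-fold lower (adjusted p = 8.9e-09). Vldlr stood at 85.9 to 98.2 CPM against 61.8 to 63.1 CPM, 1.46-fold lower (adjusted p = 1.38e-06). In the same libraries, then, Asns, Psat1, Phgdh, Atf4, Nupr1 and Cebpb were higher while Ddit3, Ppp1r15a, Chac1, Trib3 and Vldlr were lower. Whether CHOP had a part in the levels of Ppp1r15a and Trib3 was not tested.

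Chaperone genes at 96 h fell in 7 of 11 cases and rose in 3 (63.6% and 27.3%, against 36.5% and 37.3% of all tested genes). Hspa5 stood at 1360, 1466 and 1489 CPM in monolayers and at 817, 853 and 914 CPM in spheroids, 1.67-fold lower (adjusted p = 5.73e-08), close to its 1.72-fold fall at 48 h. Dnajb9 had the largest fall of the ER arm, with 115, 120 and 115 CPM against 41.7, 43.1 and 46.2 CPM, 2.67-fold (log2 fold change -1.42 ± 0.0752 SE, adjusted p = 5.71e-12). All Dnajb9 values of the 96 h monolayers were above those of the other 9 libraries. Canx (996 to 1077 CPM against 763 to 806 CPM), Dnajc3 (181 to 203 CPM against 145 to 160 CPM) and Hyou1 (250 to 292 CPM against 209 to 222 CPM) fell 1.33-fold, 1.27-fold and 1.26-fold. Hsp90b1 and Manf fell 1.21-fold and 1.19-fold (adjusted p = 0.00303 and 0.00542). Creld2 rose 1.40-fold, from 38.5 to 41.8 CPM in monolayers to 53.3 to 60.5 CPM in spheroids (adjusted p = 0.000103). Calr stood at 922, 1005 and 1113 CPM against 1204, 1297 and 1325 CPM, 1.26-fold higher (adjusted p = 0.00096), and Sdf2l1 rose by the same fold (19.5 to 22.7 CPM against 25.2 to 27.6 CPM, adjusted p = 0.00398). Dnajb11 did not pass (log2 fold change 0.09, adjusted p = 0.24).

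Ero1l was 2.45-fold lower in spheroids at 96 h, at 537, 527 and 491 CPM against 208, 208 and 217 CPM (adjusted p = 5.98e-12). P4hb fell 1.42-fold (964 to 1073 CPM against 711 to 723 CPM, adjusted p = 2.31e-06), Pdia4 fell 1.26-fold (285 to 317 CPM against 235 to 242 CPM, adjusted p = 8.13e-05), and Pdia3 did not pass (adjusted p = 0.584). Pdia6 fell 1.15-fold (adjusted p = 0.0167), a call lost without 96 h monolayer replicate 3 or 96 h spheroid replicate 1 (adjusted p = 0.0668 and 0.0578). The genes of disulfide formation thus had 4 falls and no rise (80% and 0%, against 36.5% and 37.3% of all tested genes). All 3 sensors fell at 96 h, where 36.5% of all tested genes were called lower. Ern1 stood at 69.1, 62.2 and 64.8 CPM against 26.3, 25.1 and 23.7 CPM, 2.62-fold lower (adjusted p = 1.89e-09). Eif2ak3 stood at 62.2, 66 and 68.3 CPM against 35.6, 36.8 and 36.3 CPM, 1.81-fold lower (adjusted p = 2.07e-09), and Atf6 fell 1.42-fold (103 to 113 CPM against 75.9 to 80.4 CPM, adjusted p = 6.26e-05). Xbp1 went the other way, at 96.2, 96.4 and 103 CPM against 151, 165 and 164 CPM, 1.62-fold higher (adjusted p = 3.21e-08). The gene of the kinase that splices Xbp1 and Xbp1 itself thus had opposite directions in 96 h spheroids.

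Among the degradation genes at 96 h, Sel1l stood at 258, 258 and 251 CPM against 153, 150 and 157 CPM, 1.67-fold lower (adjusted p = 1.3e-08). Edem1 and Syvn1 fell 1.27-fold and 1.25-fold (adjusted p = 5.13e-05 and 0.000311). Herpud1 stood at 63.4, 66.8 and 73.6 CPM against 87.8, 90.8 and 90.8 CPM, 1.32-fold higher (adjusted p = 6.5e-05). It was therefore lower in spheroids at 48 h and higher at 96 h, with no overlap at either time. Derl3 stood at 0.72, 1 and 1.06 CPM against 1.45, 2.06 and 1.78 CPM (log2 fold change 0.94 ± 0.349 SE, adjusted p = 0.0219). That call was lost without 96 h monolayer replicate 1 (adjusted p = 0.102) or 96 h spheroid replicate 2 (adjusted p = 0.0726) and with DESeq2 (adjusted p = 0.0621).

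**Figure D3:**
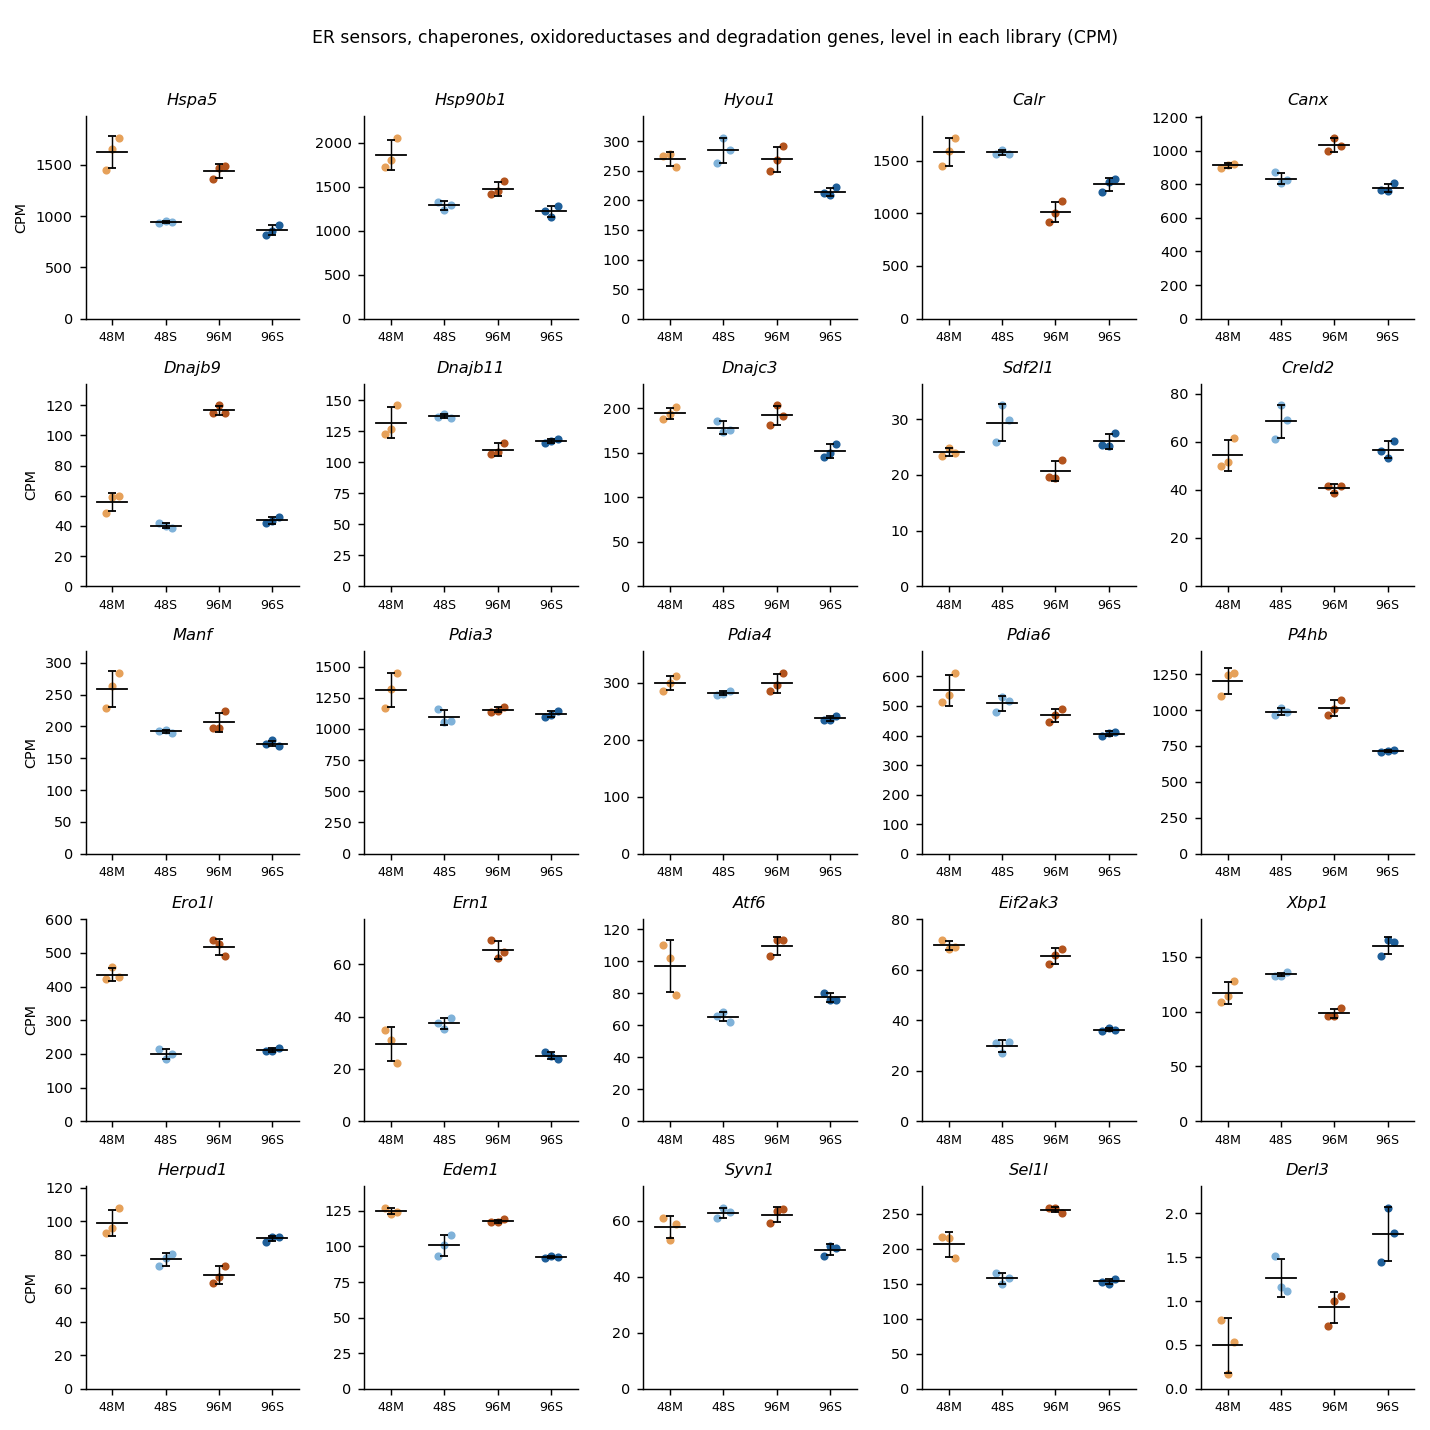
Level of the 25 genes of the ER arm in CPM (y axis, starting at 0) in each library, by group on the x axis (48M, 48S, 96M, 96S; n = 3 each). Points are libraries, and lines are the mean and SD. Hspa5, Ero1l and Eif2ak3 lie lower in both spheroid groups, Dnajb9 and Ern1 lie highest in 96 h monolayers, and Xbp1 lies highest in 96 h spheroids.

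**Figure D4:**
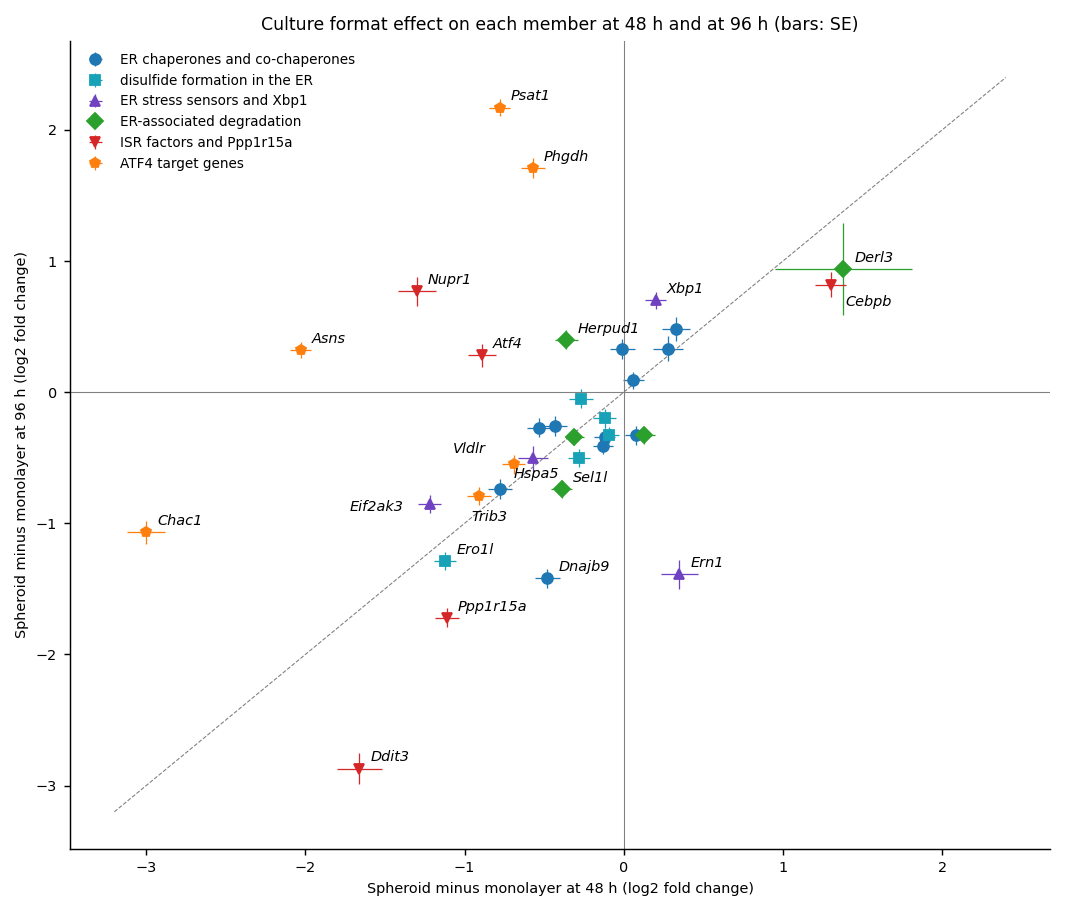
Log2 fold change of spheroids over monolayers at 48 h (x axis) and at 96 h (y axis) for the 36 members, with symbols and colours by role and bars of 1 SE; the dashed line marks equal values. Psat1, Phgdh, Asns, Nupr1, Atf4 and Herpud1 lie in the upper left, lower at 48 h and higher at 96 h, and Ern1 lies in the lower right. The 2 axes come from separate libraries.

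The change of the format effect with time was tested as the interaction, in which the log2 effect of spheroids at 48 h is subtracted from their effect at 96 h. Of the 36 members 11 had a positive and 10 a negative interaction that passed, where 26.9% of all tested genes were called positive and 26.4% negative. In the ATF4 arm 6 were positive and 3 negative, with a median of 1.17, against -0.02 over all tested genes. The interaction was also positive for all 6 mammary epithelial markers (median 1.53), for 7 of 12 housekeeping genes (median 0.41) and for 4 of 9 fibroblast markers, with 3 negative. It was negative for 5 of 6 endothelial markers (median -2.93) and 2 of 3 tested adipocyte markers. The part of these genes in the result was not tested. Psat1 had the largest value, 2.95 ± 0.0922 (SE) on the log2 scale or 7.72-fold (adjusted p = 4.7e-14). Asns (2.35), Phgdh (2.28), Nupr1 (2.07), Chac1 (1.93) and Atf4 (1.17) followed, with adjusted p-values of 4.42e-13, 5.6e-12, 5.87e-09, 8.65e-09 and 3.48e-07. Negative values were found for Ddit3 (-1.20, adjusted p = 3.77e-05), Ppp1r15a (-0.61, adjusted p = 8.45e-05) and Cebpb (-0.48, adjusted p = 0.00615). Trib3 and Vldlr did not pass (0.12 and 0.14, adjusted p = 0.362 and 0.262). At 96 h, 3 of the 6 ATF4 targets were higher and 3 lower in spheroids, after all 6 had been lower at 48 h.

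In the ER arm 5 genes had a positive and 7 a negative interaction, and the median was -0.03. These are 20% and 28% of the arm, near the 26.9% and 26.4% of all tested genes. Ern1 had the largest negative value (-1.74 ± 0.16 SE, 3.33-fold, adjusted p = 5.12e-08), followed by Dnajb9 (-0.94, adjusted p = 1.13e-06), Syvn1 (-0.45), Hyou1 (-0.41), Sel1l (-0.35), Canx (-0.28) and Pdia4 (-0.25). Positive values were those of Herpud1 (0.76, adjusted p = 6.05e-06), Xbp1 (0.50, adjusted p = 0.000283), Eif2ak3 (0.36), Calr (0.34) and Hsp90b1 (0.26, adjusted p = 0.049). Hspa5 had 0.04 ± 0.106 (SE, adjusted p = 0.746). The call of Hsp90b1 was lost in 9 of the 12 fits that leave out a library, and that of Pdia4 without 48 h spheroid replicate 3, 96 h monolayer replicate 3 or 96 h spheroid replicate 1 or 2 (adjusted p = 0.0541, 0.0633, 0.0538 and 0.0519). Dnajc3 and P4hb passed as negative without 48 h monolayer replicate 3 (adjusted p = 0.0251 and 0.0198) or 96 h monolayer replicate 1 (adjusted p = 0.0355 and 0.039), and Dnajc3 also without 96 h spheroid replicate 3 (adjusted p = 0.0374). Pdia3 and Manf passed as positive without 48 h monolayer replicate 1 (adjusted p = 0.00858 and 0.0253). Scaling by total counts alone gave 2 positive and 12 negative ER genes, and no longer called Calr (adjusted p = 0.213) or Eif2ak3 (adjusted p = 0.143).

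Between 48 h and 96 h in monolayers 8 members rose and 14 fell, where 30.1% of all tested genes were called higher and 31.3% lower. The ER arm had 5 rises and 10 falls, and the ATF4 arm 3 rises and 4 falls, with medians of -0.09 and -0.06. These counts moved with the scaling: with total counts alone 16 members were higher and 8 lower, and the median over all genes shifted by 0.171 on the log2 scale. Over the same step 10 of 12 housekeeping genes and all 6 mammary epithelial markers fell. Of the 9 fibroblast markers 7 fell and 2 rose (median -1.61), 4 of 6 endothelial markers rose and 1 fell, 2 of 3 tested adipocyte markers rose, and Cd68 rose 10.2-fold. The part of these genes in the result was not tested. Ddit3 rose 2.87-fold, from 25.7, 28.4 and 34.1 CPM to 95.2, 73.6 and 83.1 CPM (adjusted p = 1.16e-09). Ern1 rose 2.23-fold (adjusted p = 5.93e-08), Dnajb9 rose 2.09-fold (adjusted p = 9.64e-10) and Trib3 rose 1.57-fold (adjusted p = 2.98e-07). Sel1l, Ero1l and Canx rose by 1.24-fold, 1.19-fold and 1.13-fold, and Cebpb rose by 1.19-fold. The call of Cebpb was lost without 48 h monolayer replicate 1 or 2 or 96 h monolayer replicate 1 or 2 (adjusted p from 0.0687 to 0.161), and that of Canx without 96 h monolayer replicate 2 (adjusted p = 0.0693).

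The 2 serine synthesis genes fell over time in monolayers. Phgdh fell 3.03-fold, from 157, 161 and 178 CPM to 56.1, 50.2 and 56.9 CPM (adjusted p = 6.39e-12), and Psat1 fell 2.93-fold, from 235, 252 and 252 CPM to 82.6, 84.8 and 84.6 CPM (adjusted p = 1.24e-12). Asns fell 1.92-fold and Atf4 fell 1.32-fold (adjusted p = 3.95e-10 and 0.000736). The monolayers at 96 h thus had more Ddit3 and less Phgdh and Psat1 transcript than at 48 h. In the ER arm the largest falls were those of Calr (1.56-fold, adjusted p = 1.4e-06) and Herpud1 (1.46-fold, adjusted p = 4.04e-06). Creld2, Hsp90b1, Manf, Xbp1, Dnajb11, P4hb, Pdia6 and Pdia3 fell by 1.14-fold to 1.34-fold. With total counts alone Manf, Xbp1, Dnajb11, P4hb, Pdia6 and Pdia3 no longer passed (adjusted p from 0.07 to 0.884). The call of Pdia3 was also lost in 8 of the 12 fits that leave out a library. Hspa5 missed the threshold (1454 to 1764 CPM against 1360 to 1489 CPM, log2 fold change -0.17, adjusted p = 0.0501) and passed without 48 h monolayer replicate 1 (adjusted p = 0.00377) or 96 h monolayer replicate 3 (adjusted p = 0.0472). It also passed with RLE scaling (adjusted p = 0.0286), with no filter on low counts (adjusted p = 0.0357) and with DESeq2 (adjusted p = 0.0131). Atf6 (adjusted p = 0.00969) and Derl3 (adjusted p = 0.0286) passed as higher without 48 h monolayer replicate 1. Sdf2l1 passed as lower without 96 h monolayer replicate 3 or 48 h spheroid replicate 1 or 2 (adjusted p = 0.0238, 0.0377 and 0.0447).

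Between 48 h and 96 h in spheroids 11 members rose and 11 fell, where 19.3% of all tested genes were called higher and 20.5% lower. The ATF4 arm had 7 rises and 1 fall, with a median log2 fold change of 0.77, against 0.01 over all tested genes. Nupr1 rose 4.04-fold, from 52, 46 and 48.6 CPM to 185, 210 and 198 CPM (adjusted p = 1.57e-10). Chac1 rose 3.88-fold (adjusted p = 6.31e-10), Asns 2.64-fold (adjusted p = 8.66e-12), Psat1 2.63-fold (adjusted p = 7.31e-12), Atf4 1.71-fold (adjusted p = 1.29e-06), Trib3 1.70-fold (adjusted p = 2.3e-07) and Phgdh 1.60-fold (adjusted p = 6.19e-07). Nupr1 had no overlap between the times, and 5405 of all 13951 tested genes were called and without overlap. Ppp1r15a fell 1.40-fold (adjusted p = 7.75e-05), while Ddit3 (7.79 to 10.1 CPM against 10.5 to 12.5 CPM, adjusted p = 0.114) and Vldlr (adjusted p = 0.587) did not pass. Cebpb did not pass (adjusted p = 0.0686) but passed without 48 h monolayer replicate 3, 48 h spheroid replicate 1 or 96 h monolayer replicate 3 (adjusted p = 0.018, 0.0463 and 0.0486), which made 2 falls in the arm. Over the same step all 9 fibroblast markers (median -1.50), all 6 endothelial markers (median -2.29) and all 3 tested adipocyte markers (median -2.58) fell. Of the 6 mammary epithelial markers 3 rose and 1 fell, and Cd14 rose 1.82-fold. The part of these markers in the result was not tested.

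In the ER arm of spheroids 4 genes rose over time, 10 fell and 11 did not pass, with a median of -0.13. Thus 16% were called higher and 40% lower, against 19.3% and 20.5% of all tested genes. The rises were those of Xbp1 (1.19-fold), Eif2ak3 (1.21-fold), Atf6 (1.19-fold) and Herpud1 (1.16-fold). The count was 2 without 48 h spheroid replicate 1 or without 96 h spheroid replicate 2 or 3, since Herpud1 (adjusted p = 0.0974, 0.0649 and 0.07) and Atf6 (adjusted p = 0.0889, 0.0738 and 0.0764) were lost. The call of Atf6 was lost in 8 of the 12 fits that leave out a library and with RLE, upper-quartile or total-count scaling (adjusted p from 0.0552 to 0.0714). The largest falls were those of Ern1 (1.5-fold, adjusted p = 0.00058), P4hb (1.38-fold, adjusted p = 2.15e-05) and Hyou1 (1.33-fold, adjusted p = 0.000175). Syvn1, Pdia6, Calr, Creld2, Pdia4, Dnajc3 and Dnajb11 fell by 1.17-fold to 1.27-fold. The call of Creld2 was lost without 48 h spheroid replicate 2 or 3 or 96 h spheroid replicate 1 or 2 (adjusted p from 0.0571 to 0.12). Hspa5, at 932, 952 and 945 CPM and then 817, 853 and 914 CPM, did not pass (adjusted p = 0.178). Sdf2l1 and Edem1 passed as lower only without 48 h spheroid replicate 1 (adjusted p = 0.0411 and 0.0439).

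Further genes of the same pathways were measured as lists. Of 35 other genes of the amino acid response, 28 were lower and 5 higher in 48 h spheroids (80% and 14.3%, against 26.4% and 31.6% of all tested genes), with a median log2 fold change of -0.92. In 96 h spheroids 16 were higher and 11 lower (45.7% and 31.4%, against 37.3% and 36.5%), with a median of 0.14. The interaction was positive for 27 and negative for 4 of them (77.1% and 11.4%, against 26.9% and 26.4%), with a median of 1.04. Slc7a3, a transporter of cationic amino acids, stood at 28.7, 30.9 and 32.7 CPM in 48 h monolayers, 1.61, 0.927 and 0.891 CPM in 48 h spheroids, 9.52, 10.3 and 9.97 CPM in 96 h monolayers and 13.5, 14.2 and 12.5 CPM in 96 h spheroids. It was 26.1-fold lower in spheroids at 48 h (adjusted p = 2.22e-14) and 1.36-fold higher at 96 h (adjusted p = 0.00237). Cth, the gene of an enzyme of cysteine synthesis, was 13.0-fold lower at 48 h (adjusted p = 8.07e-14) and did not pass at 96 h (adjusted p = 0.316). The low values of both genes lay in the 48 h spheroids, as those of Chac1 and Asns did. Slc7a3 and Cth were also highest in 48 h monolayers, where Cth had a mean of 35.7 CPM. Its means were 2.71 CPM in 48 h spheroids, 8.27 in 96 h monolayers and 9.1 in 96 h spheroids. Over time in monolayers 23 of the 35 genes fell and 6 rose (65.7% and 17.1%, against 31.3% and 30.1%). In spheroids 27 rose and 3 fell (77.1% and 8.57%, against 19.3% and 20.5%).

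Several known ATF4 targets outside the 36 had other patterns. Slc7a11, the cystine transporter gene, stood at 48.8, 54.5 and 40.3 CPM in 48 h monolayers, 245, 212 and 225 CPM in 48 h spheroids, 308, 284 and 243 CPM in 96 h monolayers and 53.1, 46.1 and 46.6 CPM in 96 h spheroids. It was thus 4.74-fold higher in spheroids at 48 h (adjusted p = 1.94e-12) and 5.72-fold lower at 96 h (adjusted p = 1.9e-13), the reverse of Psat1 and Phgdh. Stc2, which encodes the secreted glycoprotein stanniocalcin 2, was 8.13-fold higher at 48 h and 4.02-fold higher at 96 h (adjusted p = 1.56e-16 and 2.67e-14). Slc7a5, a transporter of large neutral amino acids, stood at 101, 102 and 106 CPM in 96 h monolayers and at 345, 374 and 371 CPM in 96 h spheroids (3.54-fold higher, adjusted p = 2.22e-14), and did not pass at 48 h (adjusted p = 0.472). Gdf15, a stress-induced secreted factor, rose 3.41-fold over time in monolayers (adjusted p = 3.54e-08).

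Of 42 other genes of ER folding and quality control, 19 were lower and 6 higher in 48 h spheroids (45.2% and 14.3%, against 26.4% and 31.6% of all tested genes), with a median of -0.14. In 96 h spheroids 27 were lower and 7 higher (64.3% and 16.7%, against 36.5% and 37.3%), with a median of -0.37. Rcn1, which encodes a calcium-binding protein of the ER, stood at 164, 164 and 194 CPM against 78, 88.4 and 76.1 CPM at 48 h (2.16-fold lower, adjusted p = 3.7e-10) and was 4.56-fold lower at 96 h (adjusted p = 2.1e-14). The isomerase gene Pdia5 was 2.12-fold lower at 48 h and 3.72-fold lower at 96 h (adjusted p = 1.68e-09 and 1.07e-12). Among those higher, Atf6b, a relative of Atf6, rose 1.5-fold at 48 h and 1.58-fold at 96 h (adjusted p = 2.75e-06 and 2.61e-07), the opposite direction to Atf6. Of 15 genes of eIF2, its exchange factor and its kinases, 11 were higher and 3 lower in 96 h spheroids (73.3% and 20%, against 37.3% and 36.5% of all tested genes), with a median of 0.46. Eif2b4 and Eif2b3, subunits of the exchange factor, were 1.92-fold and 1.70-fold higher, and Impact, an inhibitor of the amino acid-sensing kinase GCN2, was 2.47-fold lower (adjusted p = 9.1e-12). In the same comparison 7 of 12 housekeeping genes were higher and 3 lower, with a median of 0.36.

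**Figure D5:**
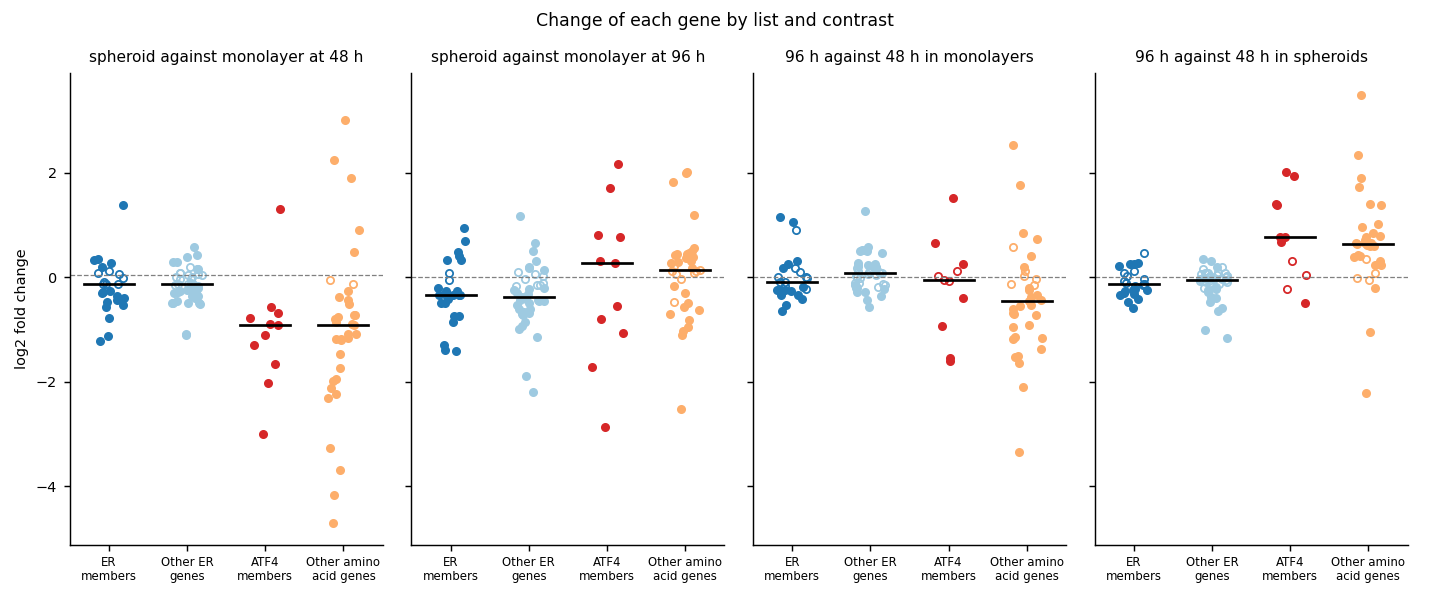
Log2 fold change (y axis) of each gene in 4 comparisons (panels) for the ER members (25), other ER genes (42), ATF4 members (11) and other amino acid response genes (35). Filled points passed and open points did not pass edgeR's test, black bars are medians, and the dashed line is the median of all tested genes. The ATF4 members and the other amino acid genes lie low in 48 h spheroids (medians -0.91 and -0.92), and the panels at 48 h and over time share libraries.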

How the data were processed

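RNA was measured in 12 libraries, 3 in each of 4 groups. Per the labels' protocols, libraries were made with Illumina TruSeq; the sources used here do not state the strand setting. Per the submitters' processing notes the tools were bcl2fastq 2.15.0, Bowtie 1.0.1 and RSEM 1.2.30 with build mm9. The authors deposited whole-number values per gene, read here as rounded RSEM expected counts, and log2 values read here as log2(FPKM + 1). In 338 cases a count of 0 stands beside an FPKM above 0, and 2093 rows carry more than 1 symbol, none of them a member's. No column of other samples was present.

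The tests were run with edgeR 4.0.16 under R 4.3.3: filterByExpr (minimum count 10, minimum total 15), TMM scaling (factors 0.923 to 1.07), and a quasi-likelihood fit with group as the only term over all 12 libraries. The 5 contrasts were tested 2-sided with Benjamini-Hochberg adjustment over all tested genes and a threshold of 0.05. The SE of a log2 fold change was taken as that size over the root of the quasi-likelihood F and can be too small for genes with few counts. CPM use the TMM-scaled totals. The p-values measure the spread between these libraries, which may be in part technical. The script was tested on simulated data. Alternatives were RLE, upper-quartile and total-count scaling, other filters, the contrast's groups alone, a replicate block, each library left out, limma 3.58.1 on the deposited log2 FPKM values, and DESeq2 1.42.0.

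The members and lists were chosen with earlier results of these data known. All 36 members are named. From each other list the 2 largest rises and 2 largest falls per contrast could be named, among genes past the threshold whose log2 CPM averaged 3 or more and whose groups do not overlap. No test was made of a list as a whole. A planned comparison of protein sequences was not run.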

Additional observations from a re-analysis of the deposited data

Results flagged for a closer look

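The effect of spheroid culture differed between 48 h and 96 h for 21 of the 36 members by edgeR's interaction test (11 positive and 10 negative, or 30.6% and 27.8%, near the 26.9% and 26.4% of all tested genes). Each value is the log2 effect of spheroids at 96 h from which their effect at 48 h was subtracted. In the ATF4 arm they were 2.95 for Psat1, 2.35 for Asns, 2.28 for Phgdh, 2.07 for Nupr1, 1.93 for Chac1, 1.17 for Atf4, -0.48 for Cebpb, -0.61 for Ppp1r15a and -1.20 for Ddit3. In the ER arm the positive values were 0.76 for Herpud1, 0.50 for Xbp1, 0.36 for Eif2ak3, 0.34 for Calr and 0.26 for Hsp90b1. The negative values were -0.25 for Pdia4, -0.28 for Canx, -0.35 for Sel1l, -0.41 for Hyou1, -0.45 for Syvn1, -0.94 for Dnajb9 and -1.74 for Ern1. Of these, Psat1, Phgdh, Asns, Nupr1, Atf4 and Herpud1 were lower in spheroids at 48 h and higher at 96 h, each with a call at both times, and Ern1 had the opposite order. How many of all tested genes changed direction in this way was not counted. The 96 h call of Atf4 was lost without 96 h monolayer replicate 2, with upper-quartile scaling and with limma on log2 FPKM (adjusted p = 0.0526, 0.0723 and 0.052). The 48 h call of Ern1 was lost without 48 h monolayer or spheroid replicate 3 (adjusted p = 0.0767 and 0.0609).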

How the results depend on the processing

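Over 22 alternatives, 33 of 36 members kept direction and call in every one for the format effect at 96 h, 25 for that at 48 h, 28 for time in spheroids and 17 for time in monolayers; for the interaction 25 did over 21 alternatives. Reversed values were those of Dnajc3 over time in monolayers (0.15 with total counts and with log2 FPKM) and Hyou1 (0.17 with total counts), neither called in the reported fit; without the shift of the median, total counts gave -0.02 and -0.00. Scaling by total counts moved the median over all genes by 0.109 at 48 h, 0.171 over time in monolayers and -0.188 in the interaction. The share of calls that were higher went from 54.5% to 65.1%, from 49% to 66.2% and from 50.5% to 34.2% in these contrasts, with 65.2%, 65.2% and 35.6% by log2 FPKM.

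Of the ER genes, 5 were higher in spheroids at 48 h, against 8 with total counts, 2 with the contrast's groups alone and 3 with DESeq2. Over time in monolayers, ER genes called higher went from 5 to 11 with total counts and 10 with log2 FPKM, those called lower from 10 to 4 and 3, and ATF4 genes called higher from 3 to 5 and 5. Over time in spheroids, ATF4 genes called lower went from 1 to 2 with upper-quartile scaling, total counts, no filter, a minimum count of 50 or the contrast's groups alone. In the interaction, ER genes called positive went from 5 to 3 with upper-quartile scaling, 2 with total counts and 2 with log2 FPKM, and those called negative from 7 to 12 with total counts and 11 with log2 FPKM. The cause was not tested.

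With each library left out, ER genes called higher ranged from 3 to 5 at 48 h and from 2 to 4 over time in spheroids, and ATF4 genes called lower over time in spheroids from 1 to 2. Replicate numbers were compared by each library's deviations from its group mean. Of 18 pairs with the same number none correlated above 0.1 (r from -0.11 to 0.0881), and in 5 the own number correlated best. Spread between libraries can hide a shared origin, so this cannot decide whether libraries with the same number share an animal or day. With a replicate block, ER genes called over time in monolayers were 5 higher and 11 lower, and in the interaction 5 positive and 8 negative, with calls gained for Hspa5 (-0.17, adjusted p = 0.0286) and P4hb (-0.23, adjusted p = 0.0433); the counts of member calls in the other contrasts were equal to those without it. Derl3, with 149 counts in all, is the member whose values depth limits most.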
